A study of Homo sapiens with 22 samples.

Results

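Binding of estrogen receptor alpha (ESR1) was described at 3 genomic windows around growth factor genes of the uterus: chr1:22400000-22550000 around WNT4, chr6:43680000-43860000 around VEGFA and chr15:99150000-99520000 around IGF1R, all in GRCh37 (hg19). Peaks were chosen by position alone, as every peak of the 20 peak lists that overlapped a window. This gave 259 of 356472 peaks, with 37 at WNT4, 143 at VEGFA and 79 at IGF1R. Overlapping peaks from different lists (1 bp or more in common) were joined into a single region, and 69 of the 93612 regions lay in the windows, with 15 at WNT4, 29 at VEGFA and 25 at IGF1R.

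The lists came from chromatin immunoprecipitation sequencing (ChIP-seq) in Ishikawa cells, an established endometrial adenocarcinoma line with ESR1. All precipitated clones carried a FLAG tag on ESR1, through which the receptor was pulled down, and ESR1 was wild type or carried D538G, a substitution in the ligand-binding domain. After at least 5 days without hormone, cells received 10 nM estradiol (E2) or 0.1% DMSO, its solvent, for 1 h. The groups were wild type with DMSO (4 libraries), wild type with E2 (4), D538G with DMSO (6) and D538G with E2 (6), and the study asked how the mutation affects where ESR1 binds. Wild-type libraries came from 2 clones and D538G libraries from 3, each clone with replicates 1 and 2 under both treatments. Libraries of 1 clone share its history, and nothing in the labels says that the replicates were separate cultures, so the p-values measure the spread between these libraries.

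ESR1 is a ligand-activated transcription factor: estradiol binding reshapes its ligand-binding domain, and the receptor then occupies estrogen response elements, often far from the genes it regulates. D538G is known from breast and endometrial cancer as a substitution that leaves the receptor active without estrogen. WNT4 and VEGFA encode secreted ligands. WNT4 signals through Frizzled receptors and is needed in the uterus for implantation and decidualization, and VEGFA drives growth and permeability of blood vessels, including those of the cycling endometrium. IGF1R is the receptor tyrosine kinase for IGF1 and IGF2, through which stromal IGF1 drives epithelial growth in the estrogen-stimulated uterus.

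List length differed widely between libraries, from 45 to 54903 peaks, and read depth is unknown. A missing peak in a short list is therefore weaker evidence than a missing peak in a long one. The wild-type DMSO lists held 51 and 29118 peaks in clone 1 (replicates 1 and 2) and 45 and 1080 peaks in clone 2. The names given to the peaks in the list labelled D538G clone 2 replicate 1 E2 hold "Ctl", which goes against its label. The list labelled as its DMSO partner is among the shorter ones with 4032 peaks. Its peak names also hold a control or DMSO tag, so both lists of the pair carry such a name. Tests of named regions and within-list counts that rest on that pair are given with and without it. Ranks are within a list, by the authors' signal value, with 1 the strongest peak and tied peaks sharing a mean rank. The percentile is 100 at the strongest peak, and a library without a peak was set to 0. Since the lists differ in length, a difference in rank or percentile between lists does not show a change in occupancy.

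The windows were richly bound compared with the genome, and the 3 loci were unlike each other. VEGFA held 161 regions per Mb, WNT4 100 and IGF1R 67.6, against 30.7 over chromosomes 1 to 22, X and Y. The windows were picked around genes of interest, and no test was made of this difference. Regions with a peak in only 1 library made up 53.3% at WNT4, 31.0% at VEGFA and 48.0% at IGF1R, against 43.8% of all regions. A peak anywhere in the window was found in 8 of 20 libraries at WNT4, 17 at VEGFA and 18 at IGF1R. Within each window, regions are lettered in coordinate order, and 13 of the 69 are named in this way. IGF1R site C and VEGFA sites A and C stood out, with peaks in 18, 16 and 16 libraries. Only 0.356% of all 93612 regions had peaks in 18 or more libraries and 1.13% in 16 or more. By RefSeq gene order WNT4 lies between CDC42 and ZBTB40, VEGFA between MRPS18A and MRPL14, and IGF1R between ARRDC4 and PGPEP1L. Gene models of the build of the lists were not used here, so no region is placed in an exon, intron or promoter and no region is assigned to a gene.

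**Figure D1:**
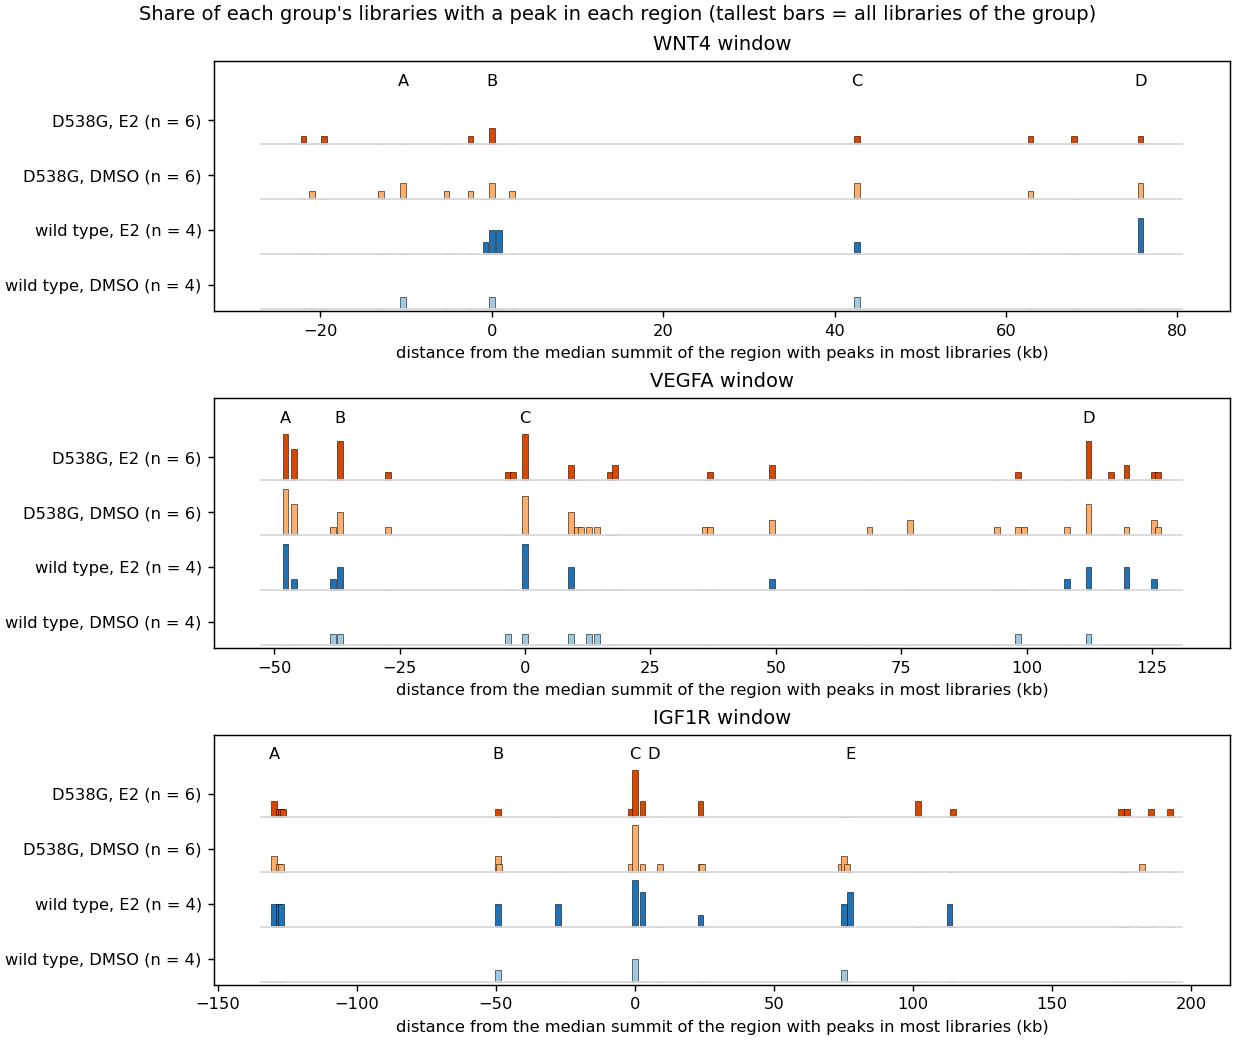
Share of each group's libraries with a peak (bar height, tallest bars = all libraries) in every region of the 3 windows, against distance in kb from the median summit of the region with peaks in most libraries. Letters mark the named sites. VEGFA sites A and C and IGF1R site C reach all libraries of several groups, and no WNT4 region does.

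At WNT4, binding was sparse and appeared mainly in the longest lists. The wild-type DMSO libraries held 0, 4, 0 and 0 peaks in the window (clone 1 replicates 1 and 2, then clone 2), and the wild-type E2 libraries 1, 5, 0 and 3. The D538G DMSO libraries held 0, 5, 0, 9, 0 and 0 peaks (clones 1, 2 and 3, each with replicates 1 and 2), and the D538G E2 libraries 0, 0, 2, 0, 0 and 8. The wild-type means were 1 ± 2 with DMSO and 2.25 ± 2.22 with E2 (SD, n = 4 each). The D538G means were 2.33 ± 3.83 with DMSO and 1.67 ± 3.20 with E2 (SD, n = 6 each), and all 4 groups overlapped. Every list with a WNT4 peak had at least 8206 peaks, and the longest list without one had 19832.

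WNT4 site B (chr1:22468441-22469212) had peaks in most libraries of the window, in 7 of 20. Its peak ranked 18350.5 of 29118 in wild-type DMSO clone 1 replicate 2. In wild-type E2 replicate 2 it ranked 16246 of 35344 in clone 1 and 12754 of 31108 in clone 2. Under DMSO the replicate 2 lists of D538G clones 1 and 2 held it at rank 36710.5 of 50382 and 15398.5 of 54903. Under E2 it ranked 17956.5 of 21869 in D538G clone 2 replicate 1 and 10936 of 49223 in clone 3 replicate 2. Its percentile lay between 17.9 and 77.8 in the lists that held it, and its presence went with list length: each of the 7 lists with 21869 or more peaks held it, and none of the 13 with 19832 or fewer did. The 7 summits lay within 168 bp of each other around a median at 22468996.

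WNT4 site D (chr1:22544321-22545060), 75.7 kb to the right of site B, was the WNT4 region with peaks in most wild-type E2 libraries. It had a peak in 3 of 4 of them, at ranks 4823.5 of 8206, 5370 of 35344 and 10456.5 of 31108, and in 0 of 4 wild-type DMSO libraries. In D538G it had a peak in 2 of 6 DMSO libraries (ranks 31363 of 50382 and 31331 of 54903) and in 1 of 6 E2 libraries (rank 10404.5 of 21869). The 6 summits spread over 347 bp and differed by group. Their median was 22544774 in wild type with E2 and 22544466 in D538G with DMSO, and the D538G E2 summit was at 22544676. The values below therefore compare joined peaks that may not mark the same binding site. The mean percentile was 48.1 ± 36.7 (SD, n = 4) in wild type with E2, 13.4 ± 20.9 (SD, n = 6) in D538G with DMSO and 8.74 ± 21.4 (SD, n = 6) in D538G with E2. The E2-minus-DMSO percentile was 52.8 lower in D538G than in wild type, which did not pass (exact permutation test, p = 0.0714). The lone D538G E2 peak came from the pair with the label conflict, and without that pair the difference was -64.2 (exact permutation test, p = 0.0317), which passed unadjusted but not after adjustment (adjusted p = 1). Without the wild-type clone 2 replicate 1 pair, whose lists held no peak there, it was -68.9 (exact permutation test, p = 0.0238), and without the 2 shortest wild-type DMSO lists -80.3 (exact permutation test, p = 0.0357). In 23 of 29 alternatives it did not pass, and over all 29 the difference ran from -102.5 to -3.14. Leaving out 1 library at a time gave -68.9 to -40.6 (exact permutation test, p up to 0.155). WNT4 sites A (chr1:22458489-22458867) and C (chr1:22511422-22512107) had peaks in 3 and 5 libraries, all in lists of at least 29118 peaks. No peak of the named WNT4 regions was among the 1000 strongest of its list.

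**Figure D2:**
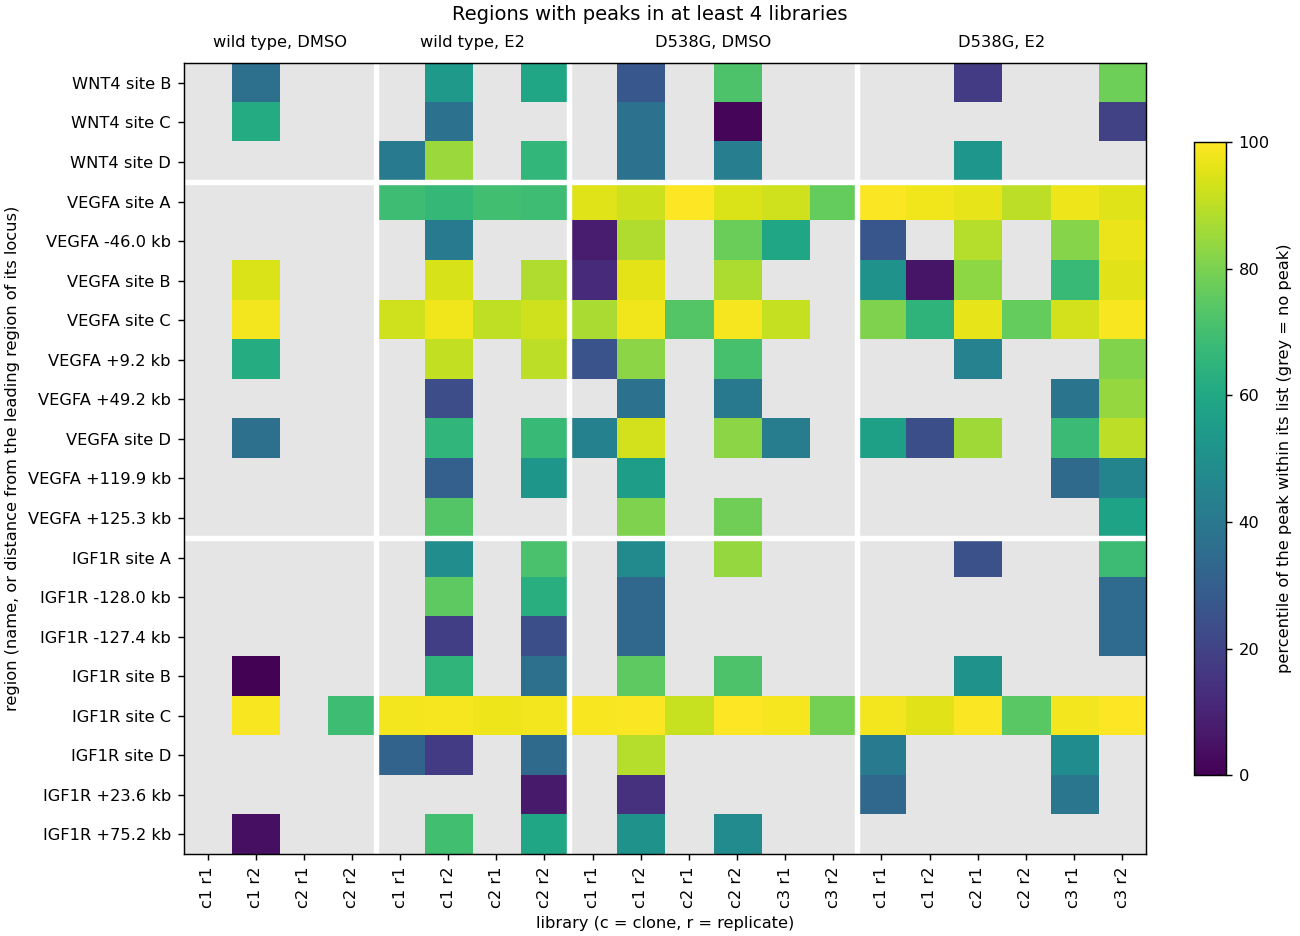
Within-list percentile (100 = strongest, grey = no peak) of each region with peaks in at least 4 libraries, by library, where c is the clone and r the replicate. The row of VEGFA site A is grey in all 4 wild-type DMSO libraries and filled in the other 16, and the WNT4 rows are filled in few columns.

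VEGFA was the most densely bound of the 3 loci. The wild-type DMSO libraries held 0, 12, 0 and 0 peaks in its window, and the wild-type E2 libraries 3, 12, 3 and 7. The D538G DMSO libraries held 7, 23, 3, 14, 5 and 1 peaks, and the D538G E2 libraries 6, 5, 9, 4, 10 and 19. Wild-type libraries averaged 3 ± 6 peaks with DMSO and 6.25 ± 4.27 with E2 (SD, n = 4 each), and D538G libraries 8.83 ± 8.26 with DMSO and 8.83 ± 5.49 with E2 (SD, n = 6 each). The groups overlapped, and the 3 lists without a peak were the shortest of the 20. No VEGFA region was bound in wild type alone, 15 were bound in both genotypes and 14 in D538G alone, while over the genome 3.78%, 40.0% and 56.3% of regions fell in these classes. At WNT4 the numbers were 2, 4 and 9 regions, and at IGF1R 3, 8 and 14. D538G had 12 libraries and wild type 8, so the classes are not balanced.

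VEGFA site A (chr6:43681584-43682922, median summit 43682240) was absent from 1 group and present throughout the other 3. It had a peak in 0 of 4 wild-type libraries with DMSO, 4 of 4 wild-type libraries with E2, 6 of 6 D538G libraries with DMSO and 6 of 6 with E2. The summits of the 16 peaks lay within 82 bp. The wild-type DMSO lists without it included that of clone 1 replicate 2 with 29118 peaks, whereas D538G clone 3 replicate 2 held it under DMSO in a list of 1621 peaks. The other wild-type DMSO lists, of 51, 45 and 1080 peaks, were shorter than any list with the site. Their lack of a peak is therefore weaker evidence, and the absence rests mainly on the list of 29118 peaks.

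Site A stood higher within the D538G lists than within the wild-type lists. In wild type with E2 it ranked 2555 of 8206 and 11843 of 35344 in clone 1 and 1742 of 5757 and 9700.5 of 31108 in clone 2, which are percentiles of 66.5 to 69.8. In D538G with DMSO it ranked 611 of 12963 and 3898.5 of 50382 in clone 1, 16 of 4032 and 3198.5 of 54903 in clone 2, and 727 of 9850 and 382 of 1621 in clone 3. In D538G with E2 it ranked 63.5 of 12566 and 153 of 6543 in clone 1, 773 of 21869 and 199 of 1979 in clone 2, and 498 of 19832 and 2434 of 49223 in clone 3. Every D538G percentile, 76.5 to 99.6 with DMSO and 89.99 to 99.5 with E2, lay above every wild-type one. The mean percentile was 68.5 ± 1.40 (SD, n = 4) in wild type with E2, 91.7 ± 7.93 (SD, n = 6) in D538G with DMSO and 96.0 ± 3.30 (SD, n = 6) in D538G with E2.

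**Figure D3:**
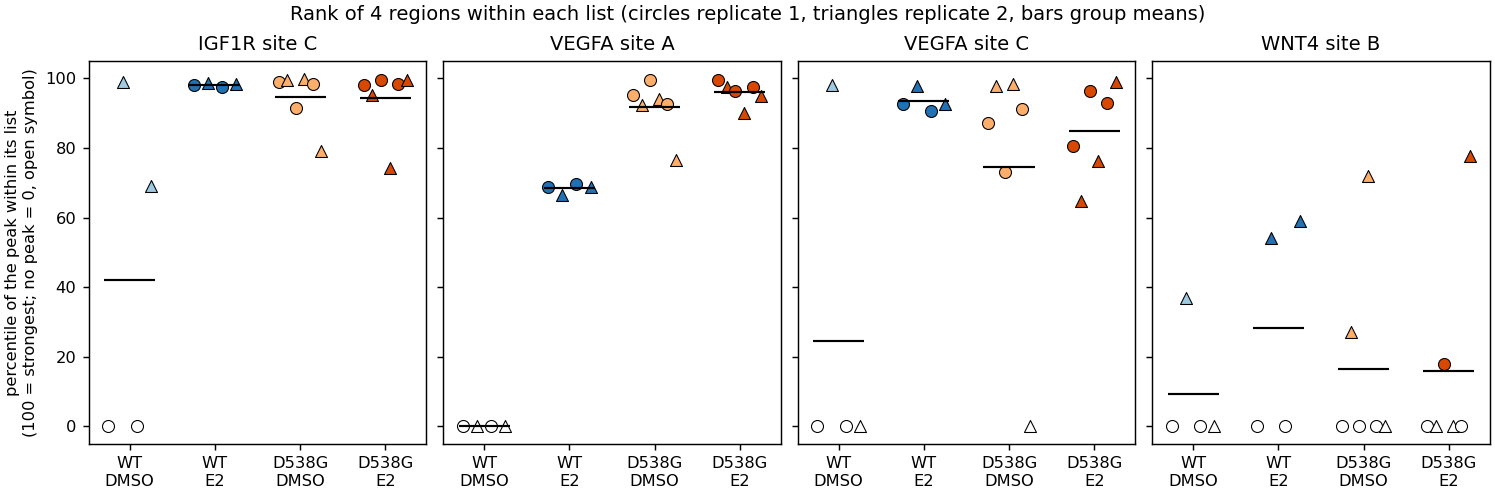
Within-list percentile of 4 regions in each library (points; open where the library has no peak, set to 0) with group means (bars). VEGFA site A lies between 66.5 and 69.8 in wild type with E2 and between 76.5 and 99.6 in D538G, and IGF1R site C lies near the top of every long list.

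VEGFA site C (chr6:43728140-43730519, median summit 43729954), 47.7 kb from site A, was the other frequent region of the window. It had a peak in 1 of 4 wild-type libraries with DMSO (rank 516 of 29118, percentile 98.2) and in 4 of 4 with E2 (ranks 594.5, 763, 547 and 2255). In D538G it had a peak in 5 of 6 libraries with DMSO (ranks 1665.5, 1142.5, 1085, 853 and 857) and in 6 of 6 with E2 (ranks 2452.5, 2298, 796, 472, 1376 and 432). The D538G DMSO library without it, clone 3 replicate 2, had 1621 peaks. The region is 2380 bp long because peaks with separate summits were merged in it. The left summits, in 15 libraries, lay between 43728592 and 43728676, with their median at 43728618. The right summits, in 16 libraries, had their median at 43729954 but did not all mark the same position. Some lay between 43729606 and 43729723, and the others between 43729953 and 43730057. D538G E2 clone 2 replicate 2 held separate right peaks with summits at 43729606 and 43730019. A left and a right peak were both held by 15 of the 16 lists with the region. The strongest peak was a right one in 11 lists and the left one in 5. Among the 15 lists with both, the left peak was the stronger in the 5 shortest, of 1979 to 8206 peaks, and the right peak in the 10 others, of 9850 to 54903. In those 5 lists the strongest right peak had its summit between 43729606 and 43729723. The order of left and right peaks thus moved with list length, whose part in it was not tested, nor was that of the right summit's position.

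The signal of VEGFA site A relative to another site can be read within 1 list, without ranks from lists of unequal length. Relative to VEGFA site C, the signal at site A was 0.466, 0.195, 0.552 and 0.428 in the 4 wild-type E2 lists, so site C was the stronger in each. In D538G with DMSO the ratio was 1.81 and 0.579 in clone 1, 4.16 and 0.517 in clone 2 and 1.10 in clone 3 replicate 1. In D538G with E2 it was 3.74 and 4.56 in clone 1, 1.02 and 1.66 in clone 2, and 1.37 and 0.376 in clone 3. Site A was thus the stronger in 3 of 5 D538G DMSO lists and 5 of 6 D538G E2 lists, and in 2 of 4 and 4 of 5 without the pair with the label conflict, whose ratios were 4.16 and 1.02. The 3 D538G lists with a ratio below 1 were the longest, with 50382, 54903 and 49223 peaks, and 2 of their ratios lay within the wild-type range. The lowest wild-type ratio also came from the longest wild-type E2 list, and the part of list length in the ratio was not tested.

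Relative to IGF1R site C the same order of groups was seen. The ratio was 0.336, 0.173, 0.386 and 0.211 in wild type with E2, with a median of 0.273. In D538G with DMSO it was 0.473, 0.417, 2.18, 0.261, 0.490 and 0.939, with a median of 0.482, and site A was the stronger in 1 of 6. In D538G with E2 it was 1.27, 1.27, 0.535, 1.76, 0.913 and 0.289, with a median of 1.09, and site A was the stronger in 3 of 6. The groups overlapped, and E2 went with a higher ratio than DMSO in 4 of 6 D538G pairs, and in 4 of 5 without the pair with the label conflict. That pair had the ratio of 2.18 under its DMSO label and 0.535 under its E2 label. Without it site A was the stronger in 0 of 5 D538G DMSO and 3 of 5 D538G E2 lists, with medians of 0.473 and 1.27. In each D538G pair but that of clone 3 replicate 1, the higher ratio came from the shorter list. The D538G lists of 50382, 54903 and 49223 peaks had the lowest D538G ratios, 0.417, 0.261 and 0.289. The part of list length in these ratios, and so in the E2 difference, was not tested. No p-value is given for these ratios, since the pair of sites was chosen after the values were seen.

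**Figure D4:**
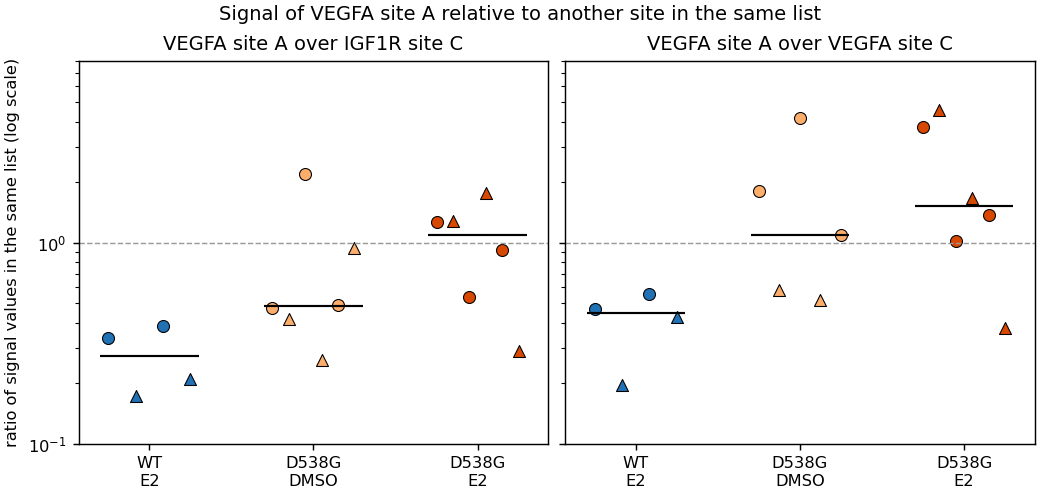
Ratio of the signal value at VEGFA site A to that at IGF1R site C (left) and VEGFA site C (right) in the same list, on a log axis, with group medians (bars) and equality (dashed). Circles are replicate 1 and triangles replicate 2. All 4 wild-type E2 lists lie below 1 in both panels, and D538G lists lie on both sides.

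The other frequent VEGFA regions were bound in both genotypes. VEGFA site B (chr6:43692637-43693388) had peaks in 1 of 4, 2 of 4, 3 of 6 and 5 of 6 libraries, in the order wild type with DMSO and with E2, then D538G with DMSO and with E2. VEGFA site D (chr6:43841904-43842551), 112 kb from site C, had peaks in 1, 2, 4 and 5 libraries in that order. Site B ranked 1665 of 29118 in the wild-type DMSO list that held it. The highest percentiles in the other 3 groups were 93.8, 95.9 and 95.4 at site B and 67.4, 93.1 and 89.9 at site D. The lowest percentile at site B was 5.65 in D538G with E2 and 11.8 in D538G with DMSO. Each D538G group thus held a strong and a weak peak there.

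At IGF1R most libraries shared 1 strong region, and the rest of the window was bound unevenly. The wild-type DMSO libraries held 0, 3, 0 and 1 peaks in the window, and the wild-type E2 libraries 4, 9, 2 and 11. The D538G DMSO libraries held 1, 16, 1, 5, 1 and 1 peaks, and the D538G E2 libraries 3, 1, 3, 1, 6 and 10. Wild-type libraries averaged 1 ± 1.41 peaks with DMSO and 6.5 ± 4.20 with E2 (SD, n = 4 each), and D538G libraries 4.17 ± 6.01 with DMSO and 4 ± 3.46 with E2 (SD, n = 6 each), with overlap between the groups. Per 10000 peaks of a list, wild type with E2 had 3.61 ± 0.958 peaks in the window (SD, n = 4) and D538G with E2 had 2.57 ± 1.36 (SD, n = 6), with overlapping ranges of 2.55 to 4.87 and 1.37 to 5.05.

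**Figure D5:**
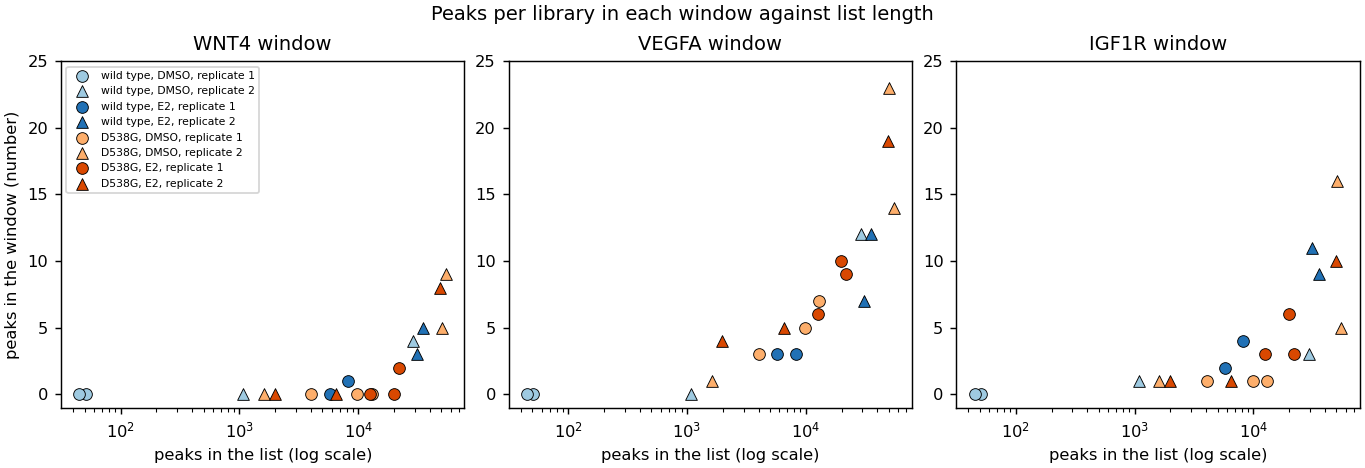
Number of peaks of each library in each window against the number of peaks in its list (log axis), by group (colour) and replicate (circles 1, triangles 2). At WNT4 the 7 lists of 21869 peaks or more and 1 list of 8206 peaks have a peak, while at IGF1R lists from 1080 peaks upward do.

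IGF1R site C (chr15:99319549-99321087) was the most widely bound member. It had a peak in 18 of 20 libraries, and the 2 without it were the wild-type DMSO lists of 51 and 45 peaks. Its rank lay between 92 and 509 in every list that held it, whether of 1080 or 54903 peaks, so it was among the 1000 strongest in 18 of 18. In wild type with DMSO it ranked 294.5 of 29118 and 335 of 1080. In wild type with E2 it ranked 159, 487, 148 and 499. In D538G it ranked 129, 235.5, 343, 158, 144 and 338 with DMSO and 246, 303, 92, 509, 317 and 155 with E2. These ranges overlapped between all groups with a peak, and the 18 summits lay within 119 bp around a median at 99320356.

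The other named IGF1R regions had peaks in few libraries. Site A (chr15:99190432-99191206), 130 kb to the left of site C, had peaks in 0 of 4, 2 of 4, 2 of 6 and 2 of 6 libraries in the group order above. Site B (chr15:99270819-99271233) had peaks in 1, 2, 2 and 1 libraries. Site D (chr15:99322832-99323284), 2.75 kb to the right of site C, had peaks in 0, 3, 1 and 2 libraries. The shortest list with a peak had 21869 peaks for sites A and B, and 8206 for site D.

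IGF1R site E (chr15:99397706-99398052), 77.5 kb to the right of site C, was the named region with peaks in wild-type E2 libraries and in no others. It had a peak in 3 of 4 of them, at ranks 5826.5 of 8206, 20202 of 35344 and 25066 of 31108, and in 0 of 4 wild-type DMSO, 0 of 6 D538G DMSO and 0 of 6 D538G E2 libraries. The D538G lists without it included those of 54903, 50382 and 49223 peaks, and the percentiles where it was found were 19.4 to 42.8. Counting regions bound by at least 2 libraries of a group, IGF1R had 10 in wild type with E2 and 4 in D538G with DMSO, and all 4 were among the 10. At VEGFA the counts were 6 and 9 with 5 shared, and at WNT4 3 and 4 with 2 shared. Over the genome 19559 regions were shared, 73.5% of those of wild type with E2 and 73.7% of those of D538G with DMSO. For the 3 loci together the shares were 57.9% (11 of 19) and 64.7% (11 of 17).

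Each comparison was tested over all regions of the genome with peaks in at least 2 of the libraries compared. Presence was tested by Fisher's exact test and percentile by an exact permutation test, both two-sided with Benjamini-Hochberg adjustment. At an adjusted p of 0.05, 0 regions passed in each of the 9 tests, in the windows and in the genome, and the smallest unadjusted p that 4 against 4 libraries allow is 0.0286. In simulated lists, 200 changes were planted among 29736 to 49878 regions, and 0 passed the adjusted threshold in any of the 4 comparisons of groups. Each planted change was present in all libraries of the first group compared and in none of the second. A larger number of changes, or weaker ones, was not simulated. With so few libraries, a count of 0 after adjustment does not show that regions were alike. Counts at an unadjusted p under 0.05 are given below with the share of all tested regions that passed the same rule.

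For E2 against DMSO in wild type, 21 of the 69 member regions were tested and 1 passed unadjusted by presence, against 9.34% of all tested regions. This was VEGFA site A, in 4 of 4 libraries with E2 and 0 of 4 with DMSO (Fisher's exact test, p = 0.0286, adjusted p = 0.306). It was also the 1 that passed by percentile, against 11.7% of all tested, with a difference of 68.5 (exact permutation test, p = 0.0286, adjusted p = 0.245). The share among members lay below the genome's for both measures, but it rests on 1 region of 21 and the difference was not tested. Among the DMSO lists, only that of clone 1 replicate 2 was longer than the shortest list that held VEGFA site A. Without the wild-type DMSO lists of 51 and 45 peaks the exact p was 0.0667, the smallest that 4 against 2 libraries allow. With the libraries paired by clone and replicate number, which is a replicate block, it was 0.125, the smallest that 4 pairs allow.

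For E2 against DMSO in D538G, 31 member regions were tested and 0 passed unadjusted by either measure, against 0.02% of all tested regions by presence and 0.356% by percentile. VEGFA site A had a mean percentile 4.28 higher with E2 (exact permutation test, p = 0.264, adjusted p = 1), and 5.77 higher without the pair with the label conflict (p = 0.127). At IGF1R site C the difference was -0.35 (exact permutation test, p = 0.905, adjusted p = 1), and -2.03 without that pair (p = 0.5). The sign of the difference at IGF1R site C was not stable to leaving out single libraries.

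For D538G against wild type under DMSO, 21 member regions were tested and 1 passed unadjusted by presence, against 3.57% of all tested regions. VEGFA site A was in 6 of 6 D538G and 0 of 4 wild-type libraries (Fisher's exact test, p = 0.00476, adjusted p = 0.585). Of these wild-type lists, only that of clone 1 replicate 2 was longer than the shortest list that held the site. By percentile 2 passed, against 4.23% of all tested: VEGFA site A, with a difference of 91.7 (exact permutation test, p = 0.00476, adjusted p = 0.438), and IGF1R site C, with a difference of 52.6 (p = 0.0190, adjusted p = 0.963). The difference at IGF1R site C rested on the 2 shortest wild-type DMSO lists. Without them it was 10.6 (exact permutation test, p = 0.143), and it was 96.4 among replicate 1 libraries and 8.79 among replicate 2 libraries, while VEGFA site A kept its difference of 91.7 (p = 0.0357). Without the pair with the label conflict the difference at VEGFA site A was 90.2 (exact permutation test, p = 0.00794, the same p by presence) and that at IGF1R site C 53.2 (p = 0.0238). Among the 1000 strongest peaks of each list VEGFA site A was present in 4 of 6 D538G DMSO libraries and 0 of 4 wild-type ones (Fisher's exact test, p = 0.0762).

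For D538G against wild type under E2, 26 member regions were tested and 1 passed unadjusted by presence, against 1.21% of all tested regions. This was IGF1R site E, in 0 of 6 D538G and 3 of 4 wild-type libraries (Fisher's exact test, p = 0.0333, adjusted p = 1). It did not pass without wild-type E2 clone 1 replicate 1, clone 1 replicate 2 or clone 2 replicate 2 (exact p = 0.0833 each), and without the pair with the label conflict p was 0.0476. By percentile 2 passed, against 2.84% of all tested: IGF1R site E, lower in D538G with a difference of -22.82 (exact permutation test, p = 0.0333, adjusted p = 0.776), and VEGFA site A, higher in D538G by 27.5 (p = 0.00476, adjusted p = 0.776). VEGFA site A was higher in 6 of 6 D538G libraries than in any wild-type one, and the difference was 27.5 (exact permutation p = 0.00794) without the pair with the label conflict. Among replicate 1 libraries alone it was 28.5, and among replicate 2 libraries 26.6. Ranked by the deposited −log10 p in place of the signal value, it was 14.6.

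The E2 effect itself was compared between genotypes as the E2-minus-DMSO percentile within each clone and replicate. Of 40 member regions tested 3 passed unadjusted, against 3.09% of all tested regions. All 3 had the smaller value in D538G, as did 1621 of the 1623 regions that passed in the genome, so this direction is not particular to the windows. At VEGFA site A the effect differed by -64.2 (exact permutation test, p = 0.00476, adjusted p = 0.564), and by -62.7 without the pair with the label conflict (p = 0.00794). At IGF1R site C it differed by -56.5 (exact p = 0.0190, adjusted p = 1), and by -14.83 (exact p = 0.321) without the 2 shortest wild-type DMSO lists. Without the pair with the label conflict it differed by -58.2 (exact p = 0.0238). At IGF1R site E it differed by -22.82 (exact p = 0.0333, adjusted p = 1), and without that pair p was 0.0476. Without that pair 4 member regions passed, the fourth being WNT4 site D. The value at VEGFA site A depends on how a missing peak is scored: over the 1000 strongest peaks of each list it turned to 17.5 (exact permutation test, p = 0.595), since none of the wild-type E2 lists held the site among them.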

How the data were processed

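ESR1-FLAG ChIP-seq peak lists of 20 libraries were used, and the 2 input libraries were not analysed here. Per the submitters' processing notes, which name tools without roles or versions, Bowtie, MACS2 and DESeq2 were used with build hg19. The lists hold peaks called per library, and the deposited columns used were the signal value (the authors' own, its scale not given in the sources used here) and the −log10 p and −log10 q of each peak. The deposited score column was not used. Every deposited −log10 p was above 10. Peak names in 4 D538G replicate 1 lists hold "Input", so the same treatment of all lists cannot be taken for granted.

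From these, 356467 peaks on chromosomes 1 to 22, X and Y were kept (5 lay elsewhere), and peaks sharing 1 bp or more were joined into regions, the same as those of bedtools 2.31.1. Tests used Python 3.11.15, numpy 2.4.6 and scipy 1.17.1, covered regions with peaks in at least 2 of the libraries compared, and were run on simulated data. The planted changes were present in all libraries of the first group and in none of the second. They passed the unadjusted threshold by construction and did not pass the adjusted one, so the simulation does not measure sensitivity to weaker changes. Where a region held several peaks of a list, the strongest was used. Groups came from the labels. E2 and DMSO libraries of the same clone and number were paired by the clone, which is the source of the pairing. The named regions were, per locus, up to 4 with peaks in most libraries and any with an unadjusted p under 0.05 by presence. The windows and rules were chosen with earlier results of these data known. Alternatives were the merging rule, a −log10 q of at least 20, the 1000 strongest peaks, no filter, the replicate block, ranking by −log10 p, and leaving out each library. Leaving out the D538G clone 2 replicate 1 pair, or the 2 wild-type DMSO lists of under 100 peaks, was added after seeing the data. Sequences and gene models of the build were not used here.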

Additional observations from a re-analysis of the deposited data

Results flagged for a closer look

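In 9 of 24 groups of values examined, 1 library lay far from the others by Dixon's criterion. Chance meets it in about 1 of 20 groups of continuous values, a rate that does not hold where most libraries are at 0. In wild type with DMSO this was clone 1 replicate 2, with 29118 peaks: 4 peaks at WNT4, 12 at VEGFA, and percentiles of 37.0 at WNT4 site B and 98.2 at VEGFA site C, where the other 3 libraries were at 0 and the criterion is met whatever the value of the remaining one. In D538G with DMSO, clone 1 replicate 2 had 16 peaks at IGF1R against at most 5 elsewhere, and clone 3 replicate 2 was at 0 for VEGFA site C, having no peak there. In D538G with E2, clone 3 replicate 2, with 49223 peaks, had 8 peaks at WNT4 and a percentile of 77.8 at WNT4 site B, and clone 2 replicate 2, with 1979 peaks, had the lowest percentile at IGF1R site C, 74.3. All of these libraries but D538G DMSO clone 1 replicate 2 had the longest or shortest list of their group, and the part of list length was not tested.

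Among the 13 named regions, the E2-minus-DMSO percentile differed between genotypes at an unadjusted exact permutation p under 0.05 in 3, by -64.2 at VEGFA site A, -56.5 at IGF1R site C and -22.82 at IGF1R site E. None passed after adjustment. Of all 52609 tested regions, 3.09% met the same unadjusted rule, and 1621 of these 1623 also had the smaller value in D538G. The named regions were picked in part by an unadjusted p in these same data, and IGF1R site E only in that way. The count among the 13 is therefore not a test.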

How the results depend on the processing

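The count of member regions past the adjusted threshold was 0 in all 162 alternatives, many of which could not reach the threshold with so few libraries. Values for single regions kept their direction and their side of an unadjusted p of 0.05 in 247 of 301 cases, lost a call in 40, gained one in 6 (all at WNT4 site D) and reversed in 8. Of the last, 1 was the difference in E2 effect at VEGFA site A, 17.5 with the 1000 strongest peaks. The others were the E2 difference in D538G at IGF1R site C, which turned to 0.679 with a −log10 q of at least 20 and to 2.32 in replicate 1 alone, and ran from -3.42 to 3.63 as single libraries were left out, with reversed values of 0.443, 0.535, 0.640, 0.676 and 3.63. With the replicate block, VEGFA site A gave an exact p of 0.125 for E2 against DMSO in wild type, and the other unadjusted calls of single regions kept p under 0.05, at 0.01 to 0.04. Leaving out 1 library at a time moved the difference under E2 at VEGFA site A between 26.9 and 28.8. Member regions past an unadjusted p of 0.05 for E2 in wild type numbered 1 by presence and by percentile. They numbered 4 by each without wild-type E2 clone 2 replicate 1, and 2 and 3 without wild-type DMSO clone 1 replicate 2. By presence under DMSO, D538G against wild type gave 1, but 3 without D538G DMSO clone 3 replicate 2 and 2 without D538G DMSO clone 2 replicate 1 or wild-type DMSO clone 1 replicate 2. By presence under E2 it gave 1, but 2 without wild-type E2 clone 2 replicate 1 or D538G E2 clone 2 replicate 1, and 0 when any 1 of the other 3 wild-type E2 libraries was left out, which also took the count by percentile from 2 to 1. The count for the difference in E2 effect went from 3 to 7 without the 2 shortest wild-type DMSO lists and to 0 with the 1000 strongest peaks. Read depth is unknown, so a short list limits what a missing peak can show.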
